A study of Homo sapiens with 20 samples.

Results

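Aminoacyl-tRNA synthetases join each amino acid to its transfer RNA, the step that supplies the ribosome with charged tRNA. Human cells make most of these enzymes from separate genes for the cytosol and for the mitochondrion, and every one of them is encoded in the nucleus. The members described here are 35 synthetase genes named by symbol, with no use of measured values, out of 58787 genes in the count table. They comprise 19 cytosolic enzymes, with symbols that end in 1 or in a subunit letter, and 16 mitochondrial enzymes, with symbols that end in 2. All 35 were in the table and all 35 passed the filter on low counts that left 13729 genes to test.

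The cells were IMR-32, an established human neuroblastoma line that carries an amplified MYCN oncogene and is labelled wild type. Adherent cultures of this line were exposed for 24 h to vehicle (DMSO), to Dyngo-4a at 1 µM (the low dose), to Dyngo-4a at 2.26 µM (the high dose), to prexasertib at 2 nM, or to Dyngo-4a and prexasertib together (the combination). Dyngo-4a blocks dynamins, the GTPases that pinch off endocytic vesicles, and prexasertib inhibits the checkpoint kinase CHK1. No source used here gives the doses within the combination. Each of the 5 groups had 4 libraries of 3′ mRNA tags with molecular barcodes, all labelled batch 1, and the series title sets the question as joint inhibition of CHK1 and MUS81. The labels do not state whether a group's 4 libraries are separate cultures, and p-values therefore cover only the spread between libraries, which may be technical. The study used a single cell line, so every value applies to that line.

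Library totals ran from 3960885 to 6537843 counts. Levels are CPM, a gene's counts relative to its library's total after TMM scaling, and changes as log2 fold changes with their standard errors (SE). A gene was called when its p-value, adjusted by Benjamini-Hochberg over all 13729 genes in edgeR's quasi-likelihood test, was under 0.05. The 4 high-dose libraries gave 2.80% to 3.15% of their counts to the nuclear RNA MALAT1, against 0.941% to 1.76% in DMSO and 1.74% to 2.92% in the combination. The part of this difference in the synthetase values was not tested. The neuroblast label was met by GATA3 at 957 to 1295 CPM and HAND2 at 488 to 867 CPM, while TH, the first enzyme of catecholamine synthesis, was at 0 to 3.27 CPM. In bulk RNA, fewer cells of a type and less RNA per cell cannot be told apart.

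Amino acid shortage leaves tRNA uncharged, and uncharged tRNA activates the kinase GCN2, which phosphorylates the initiation factor eIF2α and so favours translation of the transcription factor ATF4. ATF4 with a C/EBP partner binds a composite element in the promoters of many amino acid genes, and several cytosolic synthetase genes are among its known targets. The promoter windows of the members are shown first, and the part of this element in the changes given below was not tested. Windows from 250 bases before to 50 bases after an annotated start, from RefSeq on GRCh38.p14, existed for 30 of the 35 members (39 windows) and not for AARS2, LARS1, VARS1, VARS2 and YARS1. The element was searched as TGATGNAA on both strands, and capitals mark the match. Below are 90 bases around each match, 5′ to 3′ on the gene's own strand, for the 8 members that held one.
CARS1, chr11:3057400-3057489, minus strand: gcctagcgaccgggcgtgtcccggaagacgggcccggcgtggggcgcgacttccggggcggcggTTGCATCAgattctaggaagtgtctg
AARS1, chr16:70289656-70289745, minus strand: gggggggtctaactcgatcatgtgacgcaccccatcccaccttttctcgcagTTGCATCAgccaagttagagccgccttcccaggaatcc
GARS1, chr7:30594793-30594882, plus strand: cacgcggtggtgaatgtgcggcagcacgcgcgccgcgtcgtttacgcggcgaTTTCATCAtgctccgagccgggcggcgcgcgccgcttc
TARS1, chr5:33440899-33440988, plus strand: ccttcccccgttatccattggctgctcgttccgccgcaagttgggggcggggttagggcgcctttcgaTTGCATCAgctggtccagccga
NARS1, chr18:57621813-57621902, minus strand: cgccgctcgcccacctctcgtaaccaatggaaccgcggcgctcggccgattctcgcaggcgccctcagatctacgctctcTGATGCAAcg
MARS1, chr12:57488002-57488091, plus strand: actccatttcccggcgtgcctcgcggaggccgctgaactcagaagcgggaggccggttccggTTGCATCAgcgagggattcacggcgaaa
IARS1, chr9:92293674-92293763, minus strand: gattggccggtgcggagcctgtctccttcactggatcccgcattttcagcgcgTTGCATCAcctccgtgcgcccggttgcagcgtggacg
YARS2, chr12:32756057-32756146, minus strand: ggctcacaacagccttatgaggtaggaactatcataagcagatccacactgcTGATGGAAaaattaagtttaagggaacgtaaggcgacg

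The match was found in 7 of 16 cytosolic members with a window (43.8%) and in 1 of 14 mitochondrial members (7.14%). The same letters occurred in 3.62% of all 35116 windows and in 2.54% of the 10002 tested genes with a window. Of the 7 cytosolic genes with a window that were called higher in the high dose, 5 held it (71.4%): CARS1, AARS1, GARS1, TARS1 and NARS1. SARS1 and EPRS1, which were also called higher, had no such letters in their windows. Among the other 9 cytosolic genes with a window, MARS1 and IARS1 held it. In CARS1 the match ran from position -2 to 5 relative to the annotated start and in AARS1 from -187 to -180. A different element for comparison, the E-box CACGTG of MYC-family factors, reads the same on both strands and was in 1 of 16 cytosolic members (IARS1) and 3 of 14 mitochondrial members (MARS2, CARS2 and EARS2), against 12.9% of the tested genes. These matches are descriptions of the letters in the windows; binding was not measured.

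In the high dose of Dyngo-4a against DMSO, 9 of the 19 cytosolic synthetase genes rose and 1 fell, while of the 16 mitochondrial genes 0 rose and 2 fell (2 at an unadjusted p under 0.05 in edgeR, and 2 called by DESeq2). Over all tested genes 25.2% were called in this comparison, 12.5% higher and 12.7% lower. The median log2 fold change was 0.27 over the cytosolic genes (range -0.53 to 0.95), -0.04 over the mitochondrial genes (range -0.48 to 0.21) and 0.0039 over all tested genes. All 9 risers and VARS1, NARS2 and RARS2 had high-dose libraries that did not overlap DMSO, a separation found upward in 11.8% and downward in 11.5% of all tested genes. The difference between the compartments as groups was not tested. The cytosolic median is the value of MARS1 itself and fell to 0.13 when DMSO replicate 2 was left out.

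**Figure D1:**
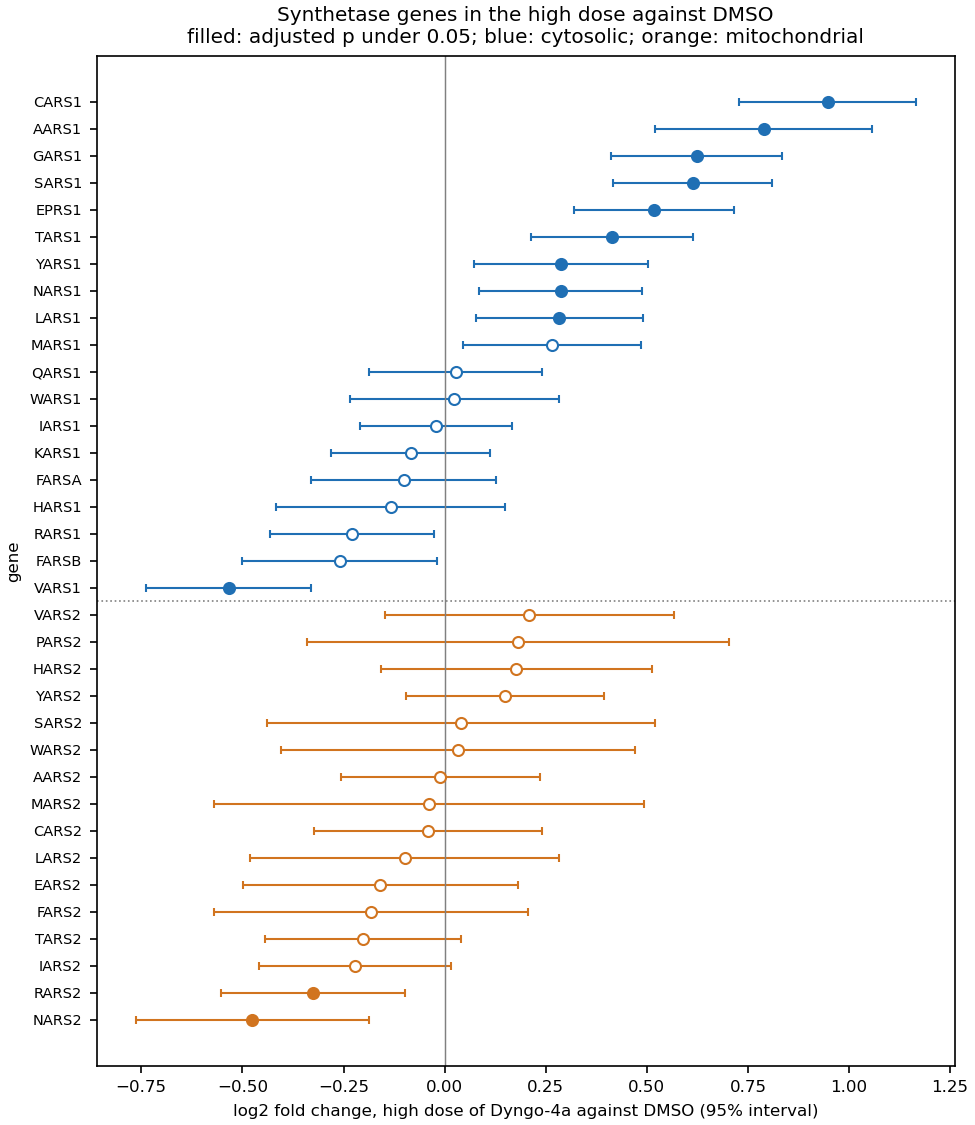
Log2 fold change of each of the 35 synthetase genes in the high dose of Dyngo-4a against DMSO (x axis, log2 units), with 95% intervals from the standard error, 4 libraries per group. The filled blue points above 0 are the 9 cytosolic genes that were called higher, from LARS1 at 0.28 to CARS1 at 0.95, and the filled points below 0 are VARS1, NARS2 and RARS2.

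CARS1, the cysteinyl-tRNA synthetase (chr11:3000922-3057613), had the largest log2 fold change of the 35. Its level was 146, 147, 121 and 168 CPM in high-dose replicates 1 to 4, against 71.7, 80.2, 68.9 and 81.0 CPM in DMSO. It lay at 58.1 to 75.3 CPM in the low dose, 72.4 to 82.4 with prexasertib and 65.8 to 78.6 in the combination. Every high-dose library was above all 16 others, and the other 4 groups overlapped each other. The log2 fold change against DMSO was 0.95 ± 0.10 SE (adjusted p = 6.79e-09).

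AARS1, the alanyl enzyme (chr16:70252295-70289543), measured 69.8, 75.3, 53.3 and 65.9 CPM in the high dose and 36.0, 40.9, 34.7 and 41.5 CPM in DMSO. The other groups spanned 36.9 to 47.0 CPM (low dose), 36.8 to 50.1 CPM (prexasertib) and 30.3 to 43.1 CPM (combination), so all of them stayed below the lowest high-dose library. The fold change was 0.79 ± 0.13 SE (adjusted p = 1.03e-05). GARS1, the glycyl enzyme (chr7:30594681-30634033), serves both compartments from 1 gene. It stood at 188, 227, 176 and 247 CPM in the high dose and 128, 142, 141 and 134 CPM in DMSO, with 128 to 158, 145 to 153 and 126 to 162 CPM in the low dose, prexasertib and the combination. Its high-dose libraries again overlapped no other group, and the fold change was 0.62 ± 0.10 SE (adjusted p = 9.40e-06). KARS1, the lysyl enzyme and the other gene here that serves both compartments, measured -0.08 ± 0.09 SE (adjusted p = 0.549).

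SARS1 charges the serine tRNAs and the selenocysteine tRNA (chr1:109213918-109238169). Its high-dose values of 359.7, 391, 294 and 437 CPM all exceeded the DMSO values of 237, 262, 226 and 244 CPM, and the fold change was 0.61 ± 0.09 SE (adjusted p = 3.79e-06). EPRS1, which joins the glutamyl and prolyl activities in a single protein (chr1:219968601-220046658), rose by 0.52 ± 0.09 SE (adjusted p = 6.17e-05). Its libraries held 387, 434, 336 and 491 CPM in the high dose and 275, 289, 303 and 284 CPM in DMSO. TARS1, the threonyl enzyme (chr5:33440696-33469539), held 401, 465, 372 and 505 CPM against 298, 365, 299 and 348 CPM in DMSO, a fold change of 0.41 ± 0.09 SE (adjusted p = 0.00110). For EPRS1 and TARS1, as for SARS1, the lowest high-dose library was above the highest DMSO library; for TARS1 the gap was the narrowest of these, from 365 to 372 CPM.

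NARS1, LARS1 and YARS1, the asparaginyl, leucyl and tyrosyl enzymes, rose less. NARS1 (chr18:57600656-57622213) measured 221, 272, 202 and 247 CPM in the high dose and 185, 195, 195 and 197 CPM in DMSO, a fold change of 0.29 ± 0.09 SE (adjusted p = 0.0229). LARS1 (chr5:146113038-146182660) changed by 0.28 ± 0.10 SE (adjusted p = 0.0284) and YARS1 (chr1:32775237-32818153) by 0.29 ± 0.10 SE (adjusted p = 0.0317). The groups did not overlap for any of the 3, with 269 to 323 CPM against 208 to 264 CPM for LARS1 and 117 to 148 CPM against 101 to 112 CPM for YARS1. Each of these calls was lost when certain single libraries were left out. For LARS1 these were DMSO replicate 1 or 4 or high-dose replicate 1 (adjusted p up to 0.114). For NARS1 they were DMSO replicate 1 or high-dose replicate 2 or 4 (adjusted p up to 0.130). The YARS1 call was lost without DMSO replicate 1, 2 or 4 or high-dose replicate 4, and with no low-count filter (adjusted p up to 0.147).

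**Figure D2:**
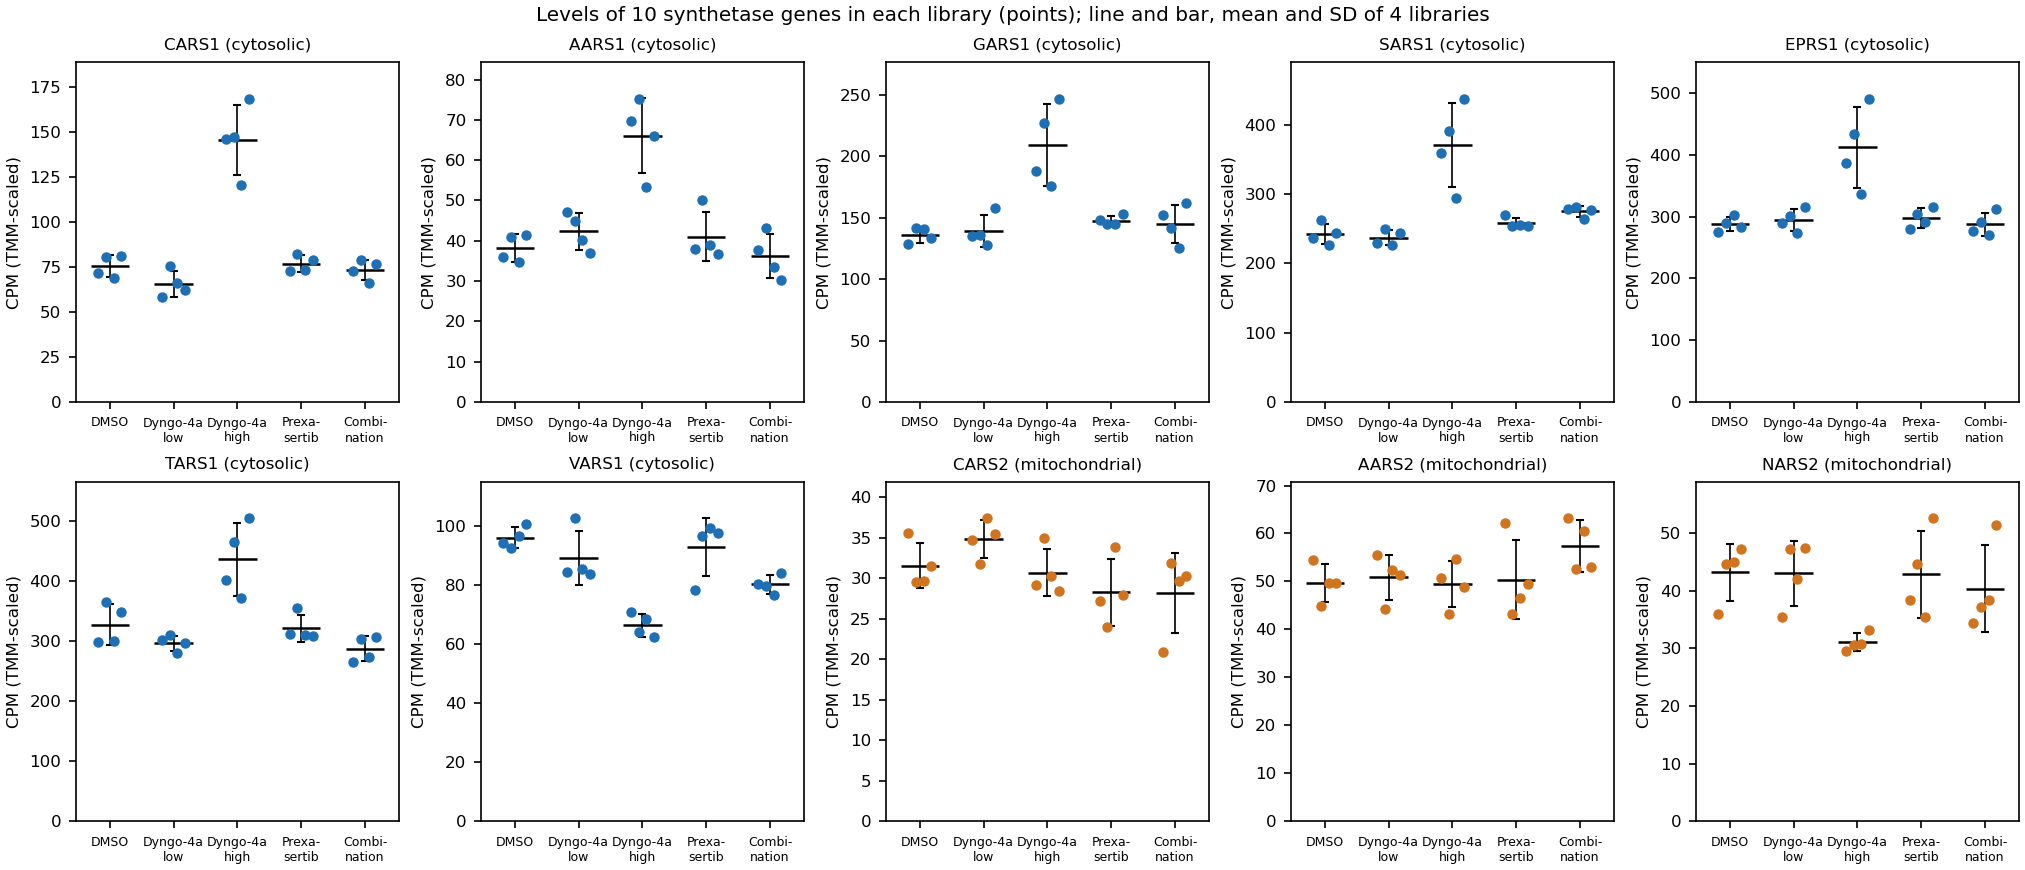
Level of 10 synthetase genes in each library (y axis, TMM-scaled CPM from 0), by group on the x axis; points are libraries, replicates 1 to 4 from left to right, and the line and bar are the mean and SD of 4 libraries. The high-dose points of CARS1, AARS1, GARS1, SARS1, EPRS1 and TARS1 lie above those of DMSO, those of VARS1 and NARS2 lie below, and those of CARS2 and AARS2 overlap DMSO.

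Within the high-dose group most risers had their lowest value in the same library. Replicate 3 was the lowest of the 4 high-dose libraries for 8 of the 9 genes that rose, and replicate 4 was the highest for 6 of 9. Among the gene lists described further on, the uncharged-tRNA and ATF4 response had its lowest mean in the same library. It was 5.86 on the log2 CPM scale in replicate 3 and 6.02 to 6.22 in the other high-dose libraries. Mitochondrial translation factors (5.08 against 5.09 to 5.18) and sympathetic markers (8.18 against 8.29 to 8.42) were also lowest there. Complex scaffolds and cytosolic elongation factors were lowest in replicate 1, and tRNA maturation genes in replicate 4. The ATF4 list was also lowest in replicate 3 of the low dose, prexasertib and the combination (4.81, 4.97 and 5.26). A shared source of these shifts was not tested. Of the 9 genes that rose, replicate 3 was also the lowest library for 6 in the low dose and for 5 in the combination. The same held for 3 of 9 in DMSO and 1 of 9 with prexasertib.

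VARS1, the valyl enzyme (chr6:31777518-31795953), was the only cytosolic member called lower in the high dose. It measured 70.8, 64.1, 68.7 and 62.4 CPM there and 94.4, 92.8, 96.7 and 101 CPM in DMSO, and all 4 high-dose values were below all 4 DMSO values. The fold change was -0.53 ± 0.10 SE (adjusted p = 5.91e-05), and the call held under all 17 alternative settings run for this comparison. MARS1, the methionyl enzyme, measured 0.27 ± 0.10 SE with an adjusted p of 0.0550 and was not called. Its last 1000 bases overlap DDIT3, on the opposite strand, by up to 593 bases, and because no source used here gives the strand setting of the counts, reads of this pair cannot be told apart. DDIT3 stood at 56.4 to 86.6 CPM in the high dose against 16.4 to 20.7 CPM in DMSO. RARS1 (arginyl, -0.23, adjusted p = 0.0718) and FARSB (the β subunit of the phenylalanyl enzyme, -0.26, adjusted p = 0.0894) were not called either. The 6 other cytosolic members, FARSA, HARS1, IARS1, KARS1, QARS1 and WARS1, lay between -0.13 (HARS1) and 0.03 (QARS1).

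Cytosolic synthetases differ in catalytic fold, as class I and class II enzymes, and several are held together in a multi-synthetase complex by the scaffold proteins AIMP1, AIMP2 and EEF1E1. Of the 7 listed members of the complex, EPRS1 and LARS1 rose and none fell (median log2 fold change 0.03). Of the 12 members outside it, 7 rose and 1 fell (median 0.29). By fold, 3 of 9 class I cytosolic genes rose and 1 fell (median 0.03), and 5 of 9 class II genes rose (median 0.29); EPRS1, which holds an active site of each class, was placed in neither. Over all tested genes 12.5% were called higher and 12.7% lower, and whether these subgroups differ was not tested. Among the scaffolds AIMP1 rose by 0.30 ± 0.10 SE (adjusted p = 0.0206), and AIMP2 and EEF1E1 were not called.

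The mitochondrial members that fell were NARS2 and RARS2. NARS2, the mitochondrial asparaginyl enzyme (chr11:78435961-78574874), measured 29.6, 30.6, 30.8 and 33.2 CPM in the high dose and 36.0, 44.6, 44.9 and 47.2 CPM in DMSO. No value overlapped, and the fold change was -0.48 ± 0.14 SE (adjusted p = 0.00820). RARS2, the mitochondrial arginyl enzyme (chr6:87514378-87590003), measured 48.7, 48.4, 47.9 and 46.7 CPM and 63.9, 64.7, 56.8 and 55.4 CPM in the same groups. These too were separate, with -0.33 ± 0.11 SE (adjusted p = 0.0214). But this call was lost without DMSO replicate 1 or 2 or high-dose replicate 4, and with no low-count filter (adjusted p up to 0.0700 over the 17 settings). The NARS2 call held under all 17.

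The remaining 14 mitochondrial genes had log2 fold changes from -0.22 (IARS2) to 0.21 (VARS2) in the high dose and were not called. Fewer counts stood behind them: 722 to 6299 per gene over the 20 libraries for the mitochondrial members (median 1944), against 4283 to 35164 for the cytosolic ones (median 11825). Their standard errors were 0.11 to 0.25, against 0.09 to 0.13. The upper end of the 95% interval lay below 0.52, the median rise of the 9 cytosolic genes, for 13 of the 16 mitochondrial members. For 9 of 16 it lay below 0.28, the smallest called rise, and for the other 7 a rise of that size lies within the interval. Among the 19 cytosolic members the upper end lay below 0.52 for 13 and below 0.28 for 9. Both bounds come from genes called in these same data, so these counts do not set the compartments apart.

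The summed level of each compartment, which includes the genes called above, separated the high dose from DMSO. The 19 cytosolic genes summed to 3269 ± 271 CPM in the high dose (SD, n = 4) and 2675 ± 75.2 CPM in DMSO, with no overlap (2924 to 3517 against 2579 to 2745 CPM). The low dose gave 2599 ± 72.5 CPM, prexasertib 2736 ± 44.1 CPM and the combination 2559 ± 101 CPM. The 16 mitochondrial genes summed to 417 ± 7.10 CPM in the high dose and 454 ± 7.69 CPM in DMSO, again without overlap but in the other direction (413 to 428 against 447 to 462 CPM). In the combination these genes summed to 428 ± 11.9 CPM (416 to 440.2 CPM), which also lay wholly below DMSO. The low dose had 458 ± 14.6 CPM and prexasertib 447 ± 12.5 CPM, both overlapping DMSO. From DMSO to the high dose the means of the 2 called mitochondrial genes went from 43.2 to 31.1 CPM (NARS2) and from 60.2 to 47.9 CPM (RARS2). Of the 16 mitochondrial genes 6 had a positive fold change there, and the median was -0.04. How often sums of other genes separate in this way was not measured.

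**Figure D3:**
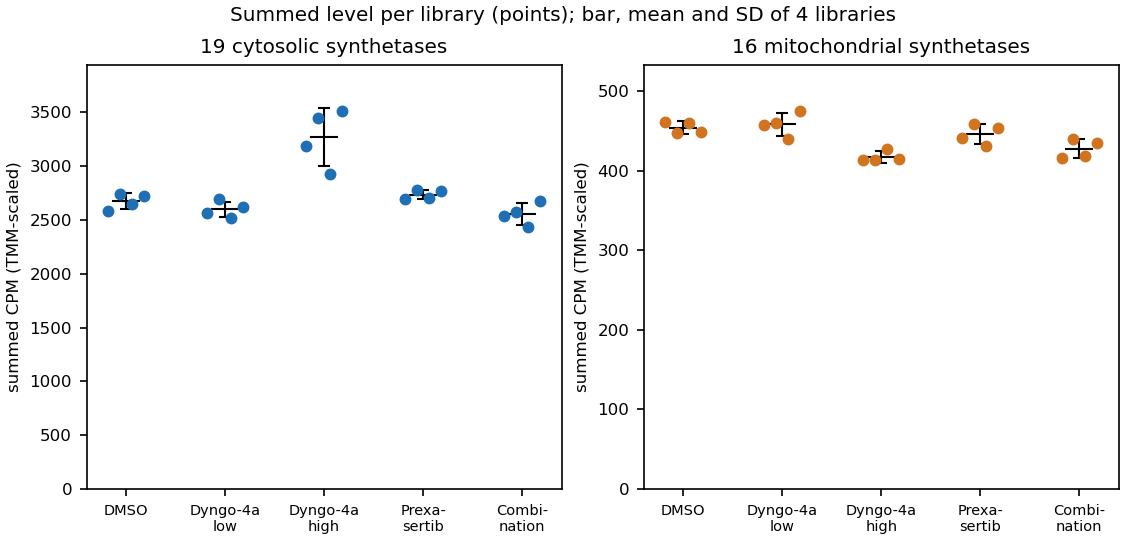
Summed level (y axis, TMM-scaled CPM from 0) of the 19 cytosolic and the 16 mitochondrial synthetase genes in each library, by group; points are libraries and the bars are mean and SD of 4. The high-dose libraries are above DMSO for the cytosolic sum (3269 against 2675 CPM) and below it for the mitochondrial sum (417 against 454 CPM).

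For 13 amino acids the list holds a single-gene enzyme in each compartment, which allows the partners to be set side by side. In the high dose the cytosolic gene had the larger fold change in 10 of 13 pairs, with a median difference of 0.30 on the log2 scale. CARS2 measured 29.2, 34.9, 30.3 and 28.4 CPM in the high dose and 35.6, 29.6, 29.6 and 31.5 CPM in DMSO, with the groups overlapping and a fold change of -0.04, where CARS1 had 0.95. AARS2 measured 50.7, 43.2, 54.8 and 48.9 CPM against 54.4, 44.9, 49.8 and 49.6 CPM, a fold change of -0.01 beside 0.79 for AARS1.

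SARS2 and TARS2 had fold changes of 0.04 and -0.20 beside 0.61 and 0.41 for SARS1 and TARS1. In the asparaginyl pair both genes were called, in opposite directions: NARS1 at 0.29 and NARS2 at -0.48. The valyl pair ran the other way, with VARS1 at -0.53 and VARS2 at 0.21 (VARS2 at 17.7 to 24.3 CPM against 14.9 to 20.8 CPM in DMSO, overlapping). In 7 pairs only the cytosolic gene was called, and of these only VARS1 was lower. In the arginyl pair only RARS2 was called, and in 4 pairs neither, where 25.2% of all tested genes were called. The difference within a pair was not tested.

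**Figure D4:**
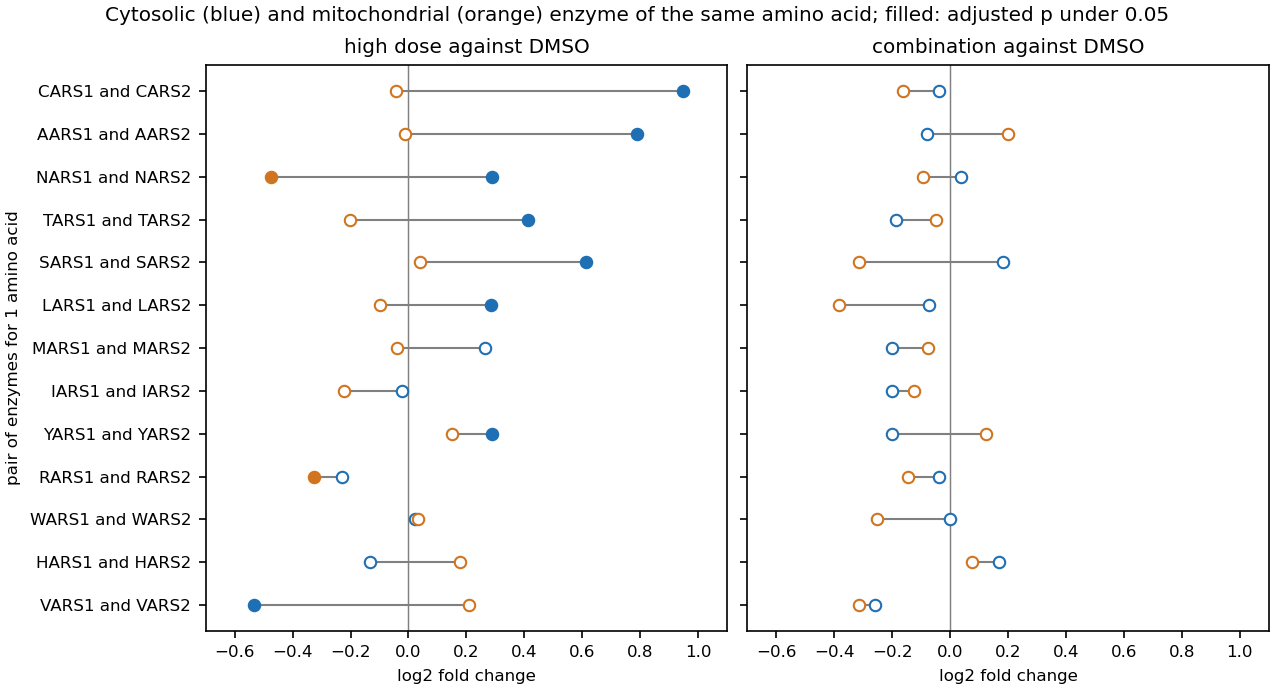
Log2 fold change against DMSO (x axis) of the cytosolic (blue) and mitochondrial (orange) gene of each of 13 amino acids (y axis), for the high dose and for the combination; filled points were called. In the high dose the cytosolic gene lies to the right in 10 of 13 pairs, with the widest gap in the cysteinyl pair, and in the combination in 8 of 13 with no point called.

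The low dose of Dyngo-4a, 1 µM, called none of the 35 members against DMSO in edgeR's quasi-likelihood test, where 0.262% of all genes were called. At an unadjusted p under 0.05 there were 2 members, HARS2 (the mitochondrial histidyl enzyme, log2 fold change 0.44 ± 0.16 SE, adjusted p = 0.421) and RARS1 (-0.21 ± 0.09 SE, adjusted p = 0.624), and DESeq2 called 0. Deviations from the group means correlated above 0.1 between all same-numbered libraries in this comparison, although the labels state no pairing. With the number as a block 1.89% of all genes and 0 members were called. Fold changes ran from -0.21 to 0.20 for the cytosolic genes (median -0.03) and from -0.26 to 0.44 for the mitochondrial genes (median 0.01). CARS1 measured -0.20 ± 0.10 SE in the low dose. The 3′ end of HARS2 overlaps ZMAT2 on the same strand by up to 152 bases, so its counts may include reads of that gene.

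Set directly against the low dose, the high dose gave 9 cytosolic genes higher and 1 lower, and of the mitochondrial genes 0 higher and 1 lower (3 at an unadjusted p under 0.05 in edgeR, and 1 called by DESeq2). Over all tested genes 20.2% were called, 10.1% higher and 10.1% lower. CARS1 differed by 1.15 ± 0.10 SE (adjusted p = 2.23e-10), SARS1 by 0.64, AARS1 by 0.64 and GARS1 by 0.59. Of the 9 genes that rose against DMSO, 8 were higher here too and LARS1 was not (0.23, adjusted p = 0.0885), while MARS1 was called here (0.43 ± 0.10 SE (adjusted p = 0.00241)). Both comparisons use the same high-dose libraries, so this overlap is not a separate test. VARS1 (-0.43) and NARS2 (-0.47) were lower, and NARS2 lost its call without low-dose replicate 2 or 4 (adjusted p up to 0.0526). Same-numbered libraries correlated above 0.1 in their deviations in this comparison too. With the number as a block LARS1 was called (0.23, adjusted p = 0.00463) and so were RARS2 (-0.27, adjusted p = 0.0257) and TARS2 (-0.25, adjusted p = 0.0461). This made 3 mitochondrial genes lower, where the block called 29.0% of all genes.

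Prexasertib at 2 nM called none of the 35 members against DMSO in edgeR's quasi-likelihood test, and 0% of all tested genes. At an unadjusted p under 0.05 there were 518 genes, 3 of them members: FARS2 (-0.50 ± 0.19 SE), WARS2 (-0.49 ± 0.21 SE) and HARS1 (0.31 ± 0.13 SE), each with an adjusted p of 1.00 after rounding. DESeq2 called 6 genes, 0 of them members. Same-numbered libraries again correlated above 0.1 in their deviations. With the replicate number as a block, 0.168% of all genes and 0 members were called. In FARS2, the mitochondrial phenylalanyl enzyme, the prexasertib libraries held 9.82, 8.94, 8.32 and 11.1 CPM, all below the DMSO libraries at 12.2, 14.04, 12.9 and 15.05 CPM. Of the 35 members, 2 cytosolic (GARS1 and HARS1) lay wholly above DMSO and 2 mitochondrial (FARS2 and WARS2) wholly below, where 1.48% of all genes were separate upward and 1.46% downward. The median was 0.05 over the cytosolic and -0.01 over the mitochondrial genes. The 3′ end of HARS1 overlaps WDR55 on the opposite strand by up to 221 bases. With the strand setting unstated, HARS1 counts in every comparison may include reads of that gene.

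In the combination against DMSO no synthetase gene rose, 1 cytosolic gene fell and 1 mitochondrial gene fell, where 6.30% of all tested genes were called, 3.47% higher and 2.83% lower. At an unadjusted p under 0.05 there were 8 members, every one with a negative fold change, and DESeq2 called 1 gene of each compartment. Both called genes encode phenylalanyl enzymes: FARSB (chr2:222570536-222656337), the cytosolic β subunit, and FARS2 (chr6:5261044-5829192). FARSB measured 74.4, 77.2, 74.0 and 87.8 CPM in the combination and 95.7, 105, 85.4 and 126 CPM in DMSO, with replicate 4 of the combination inside the DMSO range, and a fold change of -0.40 ± 0.11 SE (adjusted p = 0.0266). FARS2 measured 6.88, 8.44, 9.08 and 9.79 CPM, below every DMSO library, with -0.66 ± 0.19 SE (adjusted p = 0.0270).

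FARSA, the catalytic α subunit of the cytosolic enzyme, had 94.3, 109, 89.4 and 104 CPM in the combination and 99.5, 137, 105 and 127 CPM in DMSO (-0.24, adjusted p = 0.207). The medians were -0.07 over the cytosolic genes and -0.13 over the mitochondrial genes, beside 0.0020 over all. None of the 9 genes that rose in the high dose was called in the combination against DMSO; their fold changes there ran from -0.20 (YARS1) to 0.18 (SARS1). Both calls were lost without DMSO replicate 2 or 4 or combination replicate 1, 2 or 3. The FARS2 call was also lost with no low-count filter and with a fit of only the groups compared. Over the 17 settings the adjusted p was up to 0.163 for FARSB and 0.1097 for FARS2.

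**Figure D5:**
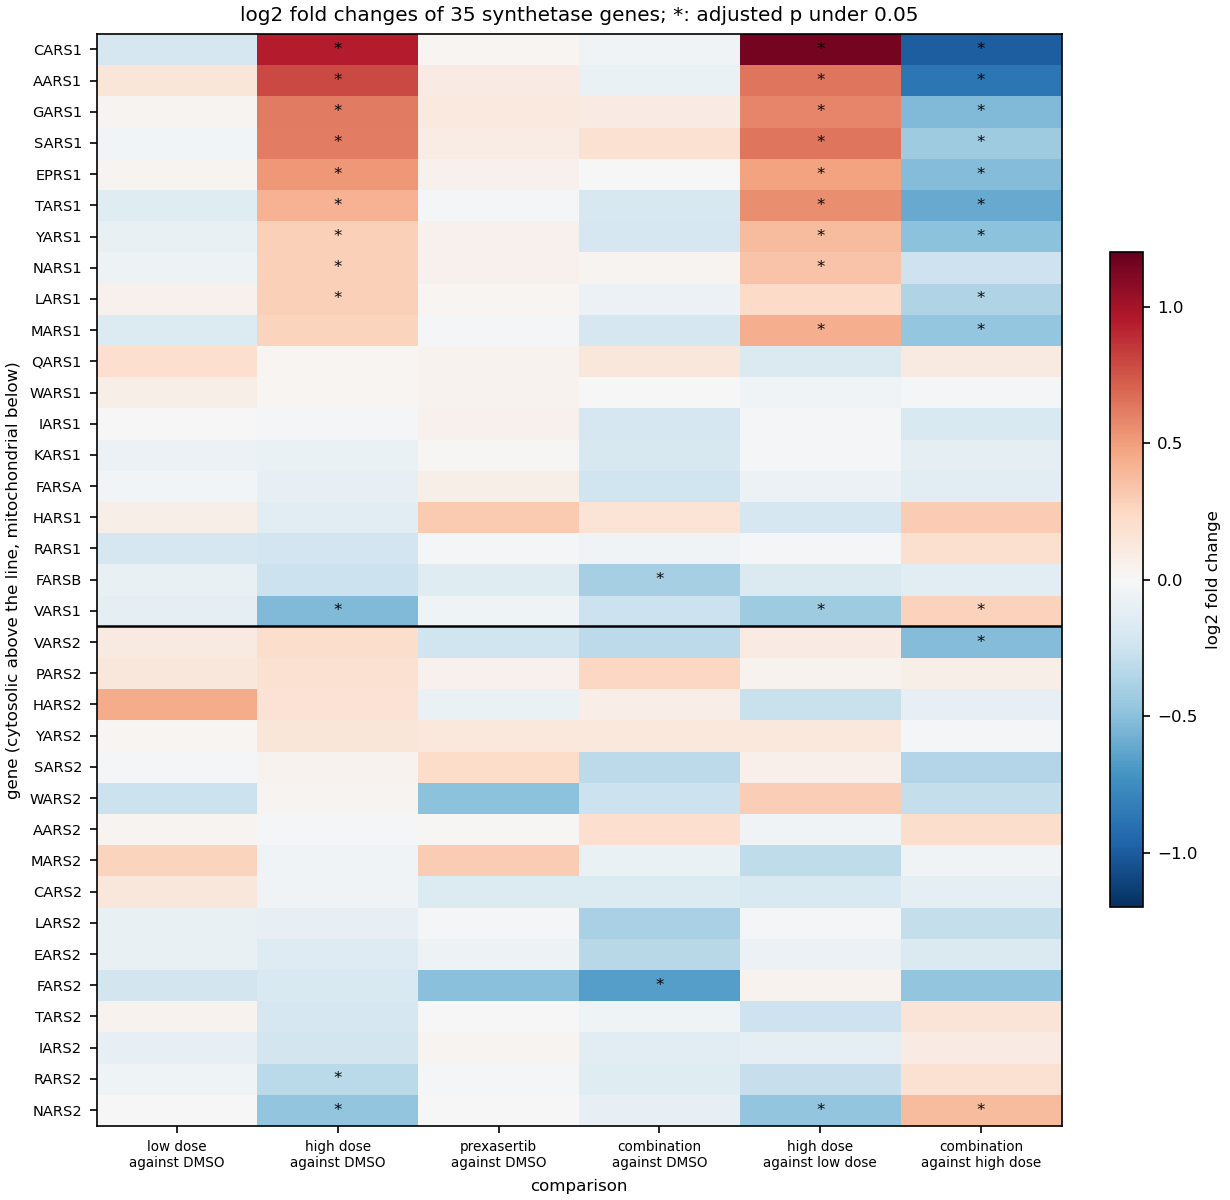
Log2 fold changes (colour, -1.2 to 1.2) of the 35 synthetase genes (rows, cytosolic above the line) in 6 comparisons (columns); a star marks an adjusted p under 0.05. The columns for the low dose and for prexasertib hold no star, the high dose against DMSO holds 10 cytosolic and 2 mitochondrial stars, and the combination against the high dose holds 10 and 2.

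The combination differed from the high dose alone in the synthetases. Against the high dose, 9 cytosolic genes were lower and 1 was higher, and 1 mitochondrial gene was higher and 1 lower, where 20.5% of all tested genes were called, 10.4% higher and 10.1% lower. CARS1 was lower by 0.99 on the log2 scale, AARS1 by 0.87, TARS1 by 0.60 and GARS1 by 0.53. For CARS1 the combination libraries at 65.8 to 78.6 CPM lay below the high-dose libraries at 121 to 168 CPM. Of the 9 genes that rose in the high dose, 8 were lower here, and NARS1 was not called (-0.25, adjusted p = 0.0559). MARS1 was lower as well (-0.47 ± 0.10 SE (adjusted p = 0.00119)).

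VARS1, the cytosolic gene that fell in the high dose, was higher in the combination than in the high dose (0.27 ± 0.10 SE (adjusted p = 0.0391)). NARS2 was higher too (0.38 ± 0.14 SE (adjusted p = 0.0420)), and VARS2 was lower (-0.52 ± 0.17 SE (adjusted p = 0.0254)). Each of these 3 calls was lost under several settings, VARS1 and NARS2 under 9 of 17 and VARS2 under 4 of 17, among them the removal of single libraries of either group. Same-numbered libraries correlated above 0.1 in their deviations here. With the number as a block HARS1 (0.30, adjusted p = 0.0255), NARS1 (-0.25, adjusted p = 0.00394), RARS1 (0.19, adjusted p = 0.0447) and FARS2 (-0.48, adjusted p = 0.0440) were called in addition, where the block called 29.1% of all genes. The comparison shares its high-dose libraries with those above. With the Dyngo-4a dose of the combination unstated in the sources used here, the added prexasertib and any difference in Dyngo-4a dose cannot be told apart.

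Against the low dose, the combination called no member in edgeR's quasi-likelihood test, where 3.85% of all genes were called; 7 members had an unadjusted p under 0.05, and DESeq2 called 0. The smallest adjusted p was that of FARSB (-0.31, adjusted p = 0.147). Against prexasertib it called no member either, where 3.44% of all genes were called, with 7 members at an unadjusted p under 0.05 and 0 called by DESeq2. FARSA (-0.31, adjusted p = 0.104) and IARS1 (-0.25, adjusted p = 0.105) came closest. In both comparisons the deviations of same-numbered libraries correlated above 0.1. With the number as a block FARSB fell against the low dose (-0.31, adjusted p = 0.0210) and SARS1 rose (0.21, adjusted p = 0.0359), so that 2 of 35 members were called beside 8.37% of all genes. Against prexasertib the block called FARSA (-0.31, adjusted p = 0.00923), IARS1 (-0.26, adjusted p = 0.0259) and YARS1 (-0.26, adjusted p = 0.0308), all lower, so that 3 of 35 members were called beside 10.0% of all genes. Neither count stands above its background.

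The other genes of tRNA charging and its sensing were taken from lists chosen for their roles. In the high dose against DMSO, 15 of 18 genes of the uncharged-tRNA and ATF4 response rose and 1 fell, with a median of 0.96 against 0.0039 over all genes, of which 12.5% were called higher. The 4 with the smallest p were DDIT3, a stress transcription factor (2.01), SESN2, a leucine-sensing inhibitor of mTORC1 (1.87), CHAC1, which degrades glutathione (3.12), and SLC7A11, the cystine transporter (1.83). ATF4 itself stood at 467 to 625 CPM in the high dose against 230 to 318 CPM in DMSO. ASNS, asparagine synthetase, stood at 14.95 to 18.1 CPM against 0.801 to 3.02 CPM. The gene for GCN2, EIF2AK4, measured 0.19 ± 0.11 SE (adjusted p = 0.225) and was not called, and EIF2S1, which encodes eIF2α, fell by 0.34.

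In the combination 5 of these 18 genes rose against DMSO and 1 fell, with a median of 0.14, where 3.47% of all genes were called higher. The risers were SESN2 (1.64), ATF3 (1.90), DDIT3 (0.89), PPP1R15A (0.72) and CHAC1 (1.05). ATF4 measured 0.05 ± 0.10 SE (adjusted p = 0.848) there and ASNS 0.78 ± 0.34 SE (adjusted p = 0.193), neither of them called. Against the high dose the combination was lower in 11 of the 18 genes, where 10.1% of all genes were called lower.

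Of 15 genes of tRNA maturation and modification, 6 fell in the high dose and the rest were not called (median -0.27), where 12.7% of all genes were called lower. WDR4 (-1.36) and METTL1 (-0.95), the subunits of the enzyme that adds 7-methylguanosine to tRNA, fell most, with NSUN2, a tRNA cytosine methyltransferase (-0.51), and TRNT1, which adds the CCA end (-0.42). In the combination 4 of the 15 fell, METTL1 (-0.68) and WDR4 (-0.62) among them, with PTRH2 and PUS1, where 2.83% of all genes were called lower. Of the 12 tested mitochondrial translation factors 4 were called in the high dose, where 25.2% of all genes were called: QRSL1 (0.56) and MTIF3 (0.52) rose, GFM1 (-0.41) and GATC (-0.33) fell, and the median was -0.10. QRSL1 and GATC encode subunits of the complex that makes mitochondrial glutaminyl-tRNA from the glutamyl-tRNA charged by EARS2, and EARS2 itself measured -0.16 and was not called. Among 6 tested cytosolic elongation factors EEF2 rose (0.30) and EIF5A fell (-0.93).

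Markers of other cell types were measured beside these groups. The 6 fibroblast markers summed to 19.0 to 33.6 CPM in the high dose and 39.7 to 47.6 CPM in DMSO; 2 of the 6 were tested and both fell, COL1A1 by 0.77 and PDGFRB by 0.98, while COL1A2, COL3A1, LUM and DCN were under 1 CPM in every library. The 5 epithelial markers summed to 5.76 to 19.2 CPM in the high dose and 9.28 to 14.1 CPM in DMSO, nearly all of it CDH1, with KRT18 at 0 throughout. The 6 blood and endothelial markers summed to 0 to 0.900 CPM and 0.202 to 2.26 CPM in these groups, with CD3E at 0 throughout. Against DMSO the high dose called 12.5% of all tested genes higher and 12.7% lower. Of the 9 tested sympathetic markers 3 rose and 4 fell in the high dose, HAND2 (-0.56) and MYCN (-0.48) among the latter. Fold changes of the 9 ran from -0.69 to 0.41, with a median of -0.05. The part of these shifts in the synthetase values was not tested.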

How the data were processed

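Gene expression was measured in 20 libraries of IMR-32 cells with a 3′ mRNA tag assay that carries molecular barcodes, per the labels' protocols. The deposited values are raw counts per Ensembl gene for 58787 genes, not normalised. The submitters' processing notes name FastQC 0.11.7, STAR 2.7.2b, edgeR 3.36.0, limma 3.50.3 and the build GRCh38. For the annotation, the counting and strand settings and the use of the barcodes, nothing is stated in the sources used here. Counts at the 3′ end do not scale with transcript length, and overlapping 3′ ends can share reads.

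Groups came from the labels. Genes were filtered with filterByExpr (minimum count 10, minimum total 15), scaled by TMM (factors 0.968 to 1.03), and fitted in 1 model over all 20 libraries with the robust quasi-likelihood method of edgeR 4.0.16 in R 4.3.3 (15 residual degrees of freedom per gene; common biological coefficient of variation, 12.5%). The two-sided F-tests of 8 comparisons were each adjusted over 13729 genes by Benjamini-Hochberg, with a threshold of 0.05. SE is the fold change divided by the square root of F, and 95% intervals use 15 degrees of freedom. A library total of 3960885 to 6537843 means that a count of 0 allows up to 0.757 CPM in the smallest library and 0.459 CPM in the largest (3 counts, counting error only).

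The members, the gene lists and the tests were chosen with earlier results of these data known. Values per library are given for the members called in the high dose with the smallest adjusted p (up to 8 cytosolic and 4 mitochondrial), for members called in another group against DMSO and for their partners in the other compartment; the rest are given by range, and lists by up to 4 called members. ATF4, ASNS, EIF2AK4, MALAT1 and single members of the short lists were named after their values were seen. Some marker genes are counted in their lists but not reported here by name. Gene positions came from GENCODE 29, and promoter windows from RefSeq on GRCh38.p14. Alternative settings were scaling by library size or by relative log size factors, no filter, 1 CPM in 4 libraries, DESeq2 1.42.0, limma-voom (limma 3.58.1), a fit of only the groups compared, a block for the replicate number, a term separating replicates 1 and 3 from 2 and 4, and each library left out. Libraries of a group differed by 3.16 to 9.19 in chi-square per degree of freedom, so none was a copy of another. The steps were tested on simulated data.

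Whether replicate numbers pair libraries was checked by correlating deviations from the group means of same-numbered libraries. Every correlation passed 0.1 for the low dose against DMSO (0.144 to 0.237), prexasertib against DMSO (0.157 to 0.213), the high against the low dose (0.110 to 0.298) and the combination against the low dose (0.144 to 0.294), prexasertib (0.115 to 0.230) and the high dose (0.172 to 0.319). For these, blocked calls of members stand beside the results they change, with the share of all genes the block called.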

Additional observations from a re-analysis of the deposited data

Results flagged for a closer look

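Each of the 35 members was examined in each of the 5 groups for a library far from the other 3, that is with a gap to the nearest library, as a share of the group's range, above Dixon's 95% critical value. Of 175 such sets of 4 values, 11 were picked out, and chance picks out about 1 in 20. With prexasertib, AARS1 stood at 50.1 CPM in replicate 2 against 36.8 to 39.0 CPM in the others. TARS1 stood at 355 CPM in the same library against 309 to 311 CPM, and WARS1 at 38.9 CPM against 41.8 to 42.4 CPM. Replicate 1 of prexasertib held the highest SARS1 value, 269 CPM against 253 to 255 CPM, and the lowest VARS1 value, 78.4 CPM against 96.7 to 99.5 CPM. HARS2 measured 17.0 CPM in prexasertib replicate 3 against 16.6 CPM in the others, a gap of little size in a narrow range.

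In combination replicate 2, HARS2 measured 20.2 CPM against 17.98 to 18.2 CPM and LARS2 20.2 CPM against 11.6 to 12.9 CPM. In the low dose, VARS1 measured 103 CPM in replicate 2 against 84.0 to 85.6 CPM and MARS2 measured 5.01 CPM in replicate 3 against 9.27 to 9.93 CPM. In DMSO, PARS2 measured 3.81 CPM in replicate 1 against 7.04 to 7.27 CPM. No member was picked out in the high dose.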

How the results depend on the processing

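No called value changed sign under any alternative. In the high dose against DMSO the calls of CARS1, AARS1, GARS1, SARS1, EPRS1, TARS1, VARS1 and NARS2 held under all 17 alternatives. The number of cytosolic genes called there was 10 and ran from 9 to 13 over the settings and from 8 to 12 with 1 library left out. The mitochondrial count of 2 became 1 with no low-count filter and was 1 to 2 with 1 library left out. In the combination against DMSO the cytosolic count of 1 was 0 to 1 with 1 library left out and 2 with the term for replicates 1 and 3 against 2 and 4. The mitochondrial count of 1 was 0 with no filter, 0 with only the compared groups and 0 to 1 with 1 library left out. In the high against the low dose the mitochondrial count of 1 was 2 with the replicate term and 0 to 2 with 1 library left out. In the combination against the low dose the replicate term called 1 cytosolic gene, and against prexasertib 2, where leaving out 1 library gave 0 to 1. In the combination against the high dose the mitochondrial count of 2 was 1 with no filter, 1 with limma-voom, 1 with only the compared groups and 0 to 2 with 1 library left out.

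Counts over all genes moved more. The low dose against DMSO had 36 calls, 62 with no filter, 73 with the replicate term and 14 to 30 with 1 library left out. Prexasertib against DMSO had 0, and 12 with no filter, 6 with DESeq2, 2 with only the compared groups, 4 with the replicate term and 0 to 2 with 1 library left out. The replicate term gave 1427 calls for the combination against DMSO (865 without it), 829 against the low dose (528) and 909 against prexasertib (472). Leaving out 1 library gave 594 to 861, 386 to 497 and 309 to 474 calls in these comparisons. For the moved counts the cause was not tested.

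With the replicate number as a block, all-gene calls were 260 for the low dose against DMSO, 23 for prexasertib against DMSO, 1976 for the combination against DMSO, 1149 for the combination against the low dose and 1374 against prexasertib. The blocked cytosolic counts were 4 for the combination against DMSO, 2 against the low dose and 3 against prexasertib, and the blocked mitochondrial count was 3 for the high against the low dose. The pairing check missed for the high dose against DMSO (lowest correlation 0.0271) and the combination against DMSO (0.0274), where 3 of 4 numbers correlated best with their own. With the block FARSB, MARS1 and RARS1 were also called in the former (13 cytosolic calls), and FARSA, TARS1 and VARS1 in the latter. The block changed no other call of a member beyond those given beside the results.

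Fits within replicates 1 and 3 and within replicates 2 and 4, whose difference was known from earlier results, gave every member called in the high dose against DMSO the same sign (10 of 10 cytosolic and 2 of 2 mitochondrial in both), with cytosolic medians of 0.16 and 0.23. The mitochondrial median of -0.04 ran from -0.09 to 0.01 over all alternatives and so has no firm sign. No scaling moved the median of all genes by more than 0.1. The mitochondrial genes had fewer counts and a larger median standard error in the high dose, 0.16 against 0.10; the part of depth in this was not tested.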
